A study of Mus musculus with 36 samples.

Results

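Mesenteric lymph nodes taken on day 35 were compared with nodes taken on day 27 of exposure to the soluble lymphotoxin-beta receptor (sLTbetaR-Ig), to see which transcripts differed between the 2 late harvests. There were 2 Affymetrix array designs, called array A and array B, which carry largely different sets of probes. The samples were chosen by their titles alone: 3 of day 35 and 3 of day 27 on each design. That is 6 of the 18 samples on array A and 6 of the 18 on array B, all from mouse. The other 12 on each array are 3 from animals given phosphate-buffered saline (PBS, listed as day 0) and 3 each from days 1, 2 and 3 of sLTbetaR-Ig. The PBS samples take no part in the difference between the late days and serve as a reference level for both. Like the samples of days 1, 2 and 3, they share in the estimate of spread, the floor and the filter. The labels give no strain, sex, age or dose, no saline group at day 27 or 35 and no animals treated with a control fusion protein. Day of harvest and length of exposure therefore cannot be told apart, and nothing in the labels says whether dosing continued up to day 35. The labels do not say whether the 3 samples of a group are separate mice, and p-values then measure only how far these samples spread, which may be technical.

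The lymphotoxin-beta receptor sits on lymph node stromal cells and is engaged by lymphotoxin made by lymphocytes. Its signal, passed on through NF-kappaB, keeps follicular dendritic cells (stromal cells that hold antigen in B cell follicles) and high endothelial venules (the entry vessels for blood lymphocytes) in their specialised state. Given as a soluble protein, the receptor takes up its ligands before the cells can. Transcripts of such stroma are therefore the classic readout of the pathway in lymph nodes.

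No probe set passed the test between day 35 and day 27. The call was a Benjamini-Hochberg adjusted p under 0.05 in limma, fitted over all 18 arrays of a table. It was met by 0 of 12231 tested probe sets on array A (0%) and by 0 of 12516 on array B (0%). The smallest adjusted p was 0.0821 on array A and 0.61 on array B. At an unadjusted p under 0.05 there were 815 probe sets on array A (6.66%), of which 187 were higher at day 35 (1.53%) and 628 lower (5.13%). On array B there were 354 (2.83%), of which 117 were higher (0.935%) and 237 lower (1.89%). The 3 samples of day 35 stood wholly above the 3 of day 27 at 357 probe sets of array A (2.92%) and wholly below at 668 (5.46%), and on array B at 593 (4.74%) and 355 (2.84%). On array A this depended on how arrays were weighted: with weights estimated per array, 75 probe sets were called higher at day 35 (0.613%) and 389 lower (3.18%), and in a weighted fit of the late samples alone 29 (0.237%) and 212 (1.73%). Quantile normalization gave 4 calls, all higher. Those 4 were Cxcl13, Mfge8, Lyz2 and Glycam1. Every difference between day 35 and day 27 given below is one that did not pass the test as reported. The values are given because the smallest p-values fell on recognisable genes.

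The late arrays were on a common scale. Their median intensity lay between 275.5 and 299.5 on array A and between 155.1 and 165.2 on array B, and the median difference over tested probe sets was -0.0123 and 0.00864 (log2). The median standard error (SE) of a difference was 0.091 on array A and 0.11 on array B. The tested probe sets carried by both arrays numbered 94. Their late differences disagreed between the arrays by a median of 0.133 (log2) and by at most 0.347. The largest difference itself was 0.274 on array A and 0.338 on array B. Whether arrays A and B of one number hold the same RNA is not in the labels. Of the late samples on array A, replicate 2 of day 27 and replicate 3 of day 35 varied most around their groups, with estimated array weights of 0.232 and 0.287 where an array of average weight has 1. Lymphocyte markers were far above the floor of 122.6, though they do not tell a lymph node from other lymphoid tissue. Cd79a, part of the B cell receptor, lay between 2405 and 2785 at day 27 and between 2604 and 2783 at day 35, against 3342 to 3459 with PBS. Cd3e, part of the T cell receptor, lay between 1927 and 2239 and between 1938 and 2076, against 1746 to 1888 with PBS. Adipoq, made by fat cells, was also far above the floor of 122.6 in every late sample. Of the intestinal markers, Fabp2 was below that floor, Vil1 lay between 126.5 and 171.9 and Cdh17 between 171.1 and 214.2 in the late samples. Of the pancreatic ones, Cpa1 read 98.41 to 126.7 at day 27, around the floor, and 86.8 to 107.3 at day 35, below it. Cela1, an elastase gene, read 354.1 to 421.5 at day 27 and 373.2 to 384.9 at day 35.

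The smallest p-values on array A belonged to stromal genes and lysozyme, all higher at day 35. Cxcl13 is the chemokine that draws B cells into follicles and is made by follicular stroma. Its intensity was 648, 738 and 646 in the 3 samples of day 27 and 973, 1278 and 959 in those of day 35, against 1455, 1554 and 1549 with PBS. The late groups did not overlap, and every day 35 sample was still below every PBS sample. The difference was 0.65 (log2, SE 0.108, 95% interval 0.42 to 0.88, n = 3 samples a day, limma adjusted p = 0.0821). A second Cxcl13 probe set read 711, 822 and 720 and then 1046, 1243 and 939, a difference of 0.51 (SE 0.094), so both gave the same order. Over the alternatives tried, the adjusted p of the first probe set ran from 0.000564 to 0.795.

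Glycam1 encodes a mucin-like glycoprotein of high endothelial venules that carries sugars bound by L-selectin on lymphocytes. It read 2132, 2038 and 2530 at day 27 and 2974, 3865 and 3650 at day 35, against 5239, 6627 and 5555 with PBS. The 2 late groups did not overlap, and both lay below the PBS range. The difference was 0.64 (log2, SE 0.117, limma adjusted p = 0.0821).

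Mfge8 is a bridging protein for the uptake of dying cells that follicular dendritic cells secrete. Its intensity was 2117, 1834 and 2832 at day 27 and 3122, 3669 and 3271 at day 35, with 3372, 3621 and 3354 under PBS. Here the day 35 values overlapped those of PBS, and 1 of the 3 day 27 samples, replicate 3, was well above the other two. The difference was 0.59 (log2, SE 0.107, limma adjusted p = 0.0821). Leaving out that sample brought it to 0.76 with an adjusted p of 0.000278 in limma, the lowest of a range up to 0.998 over the alternatives.

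Lyz2 encodes the lysozyme of macrophages and other myeloid cells. It read 3985, 3703 and 4159 at day 27, 4783, 5563 and 4922 at day 35 and 5762, 5733 and 5933 with PBS. The order was again day 27, day 35, PBS, with no overlap among the 3 groups. The difference of 0.36 (log2, SE 0.062) also had a limma adjusted p of 0.0821. A pair of probe sets for the near-identical Lyz1, named after their values were seen, differed by 0.38 and 0.42, and these arrays may not tell the paralogs apart.

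**Figure D1:**
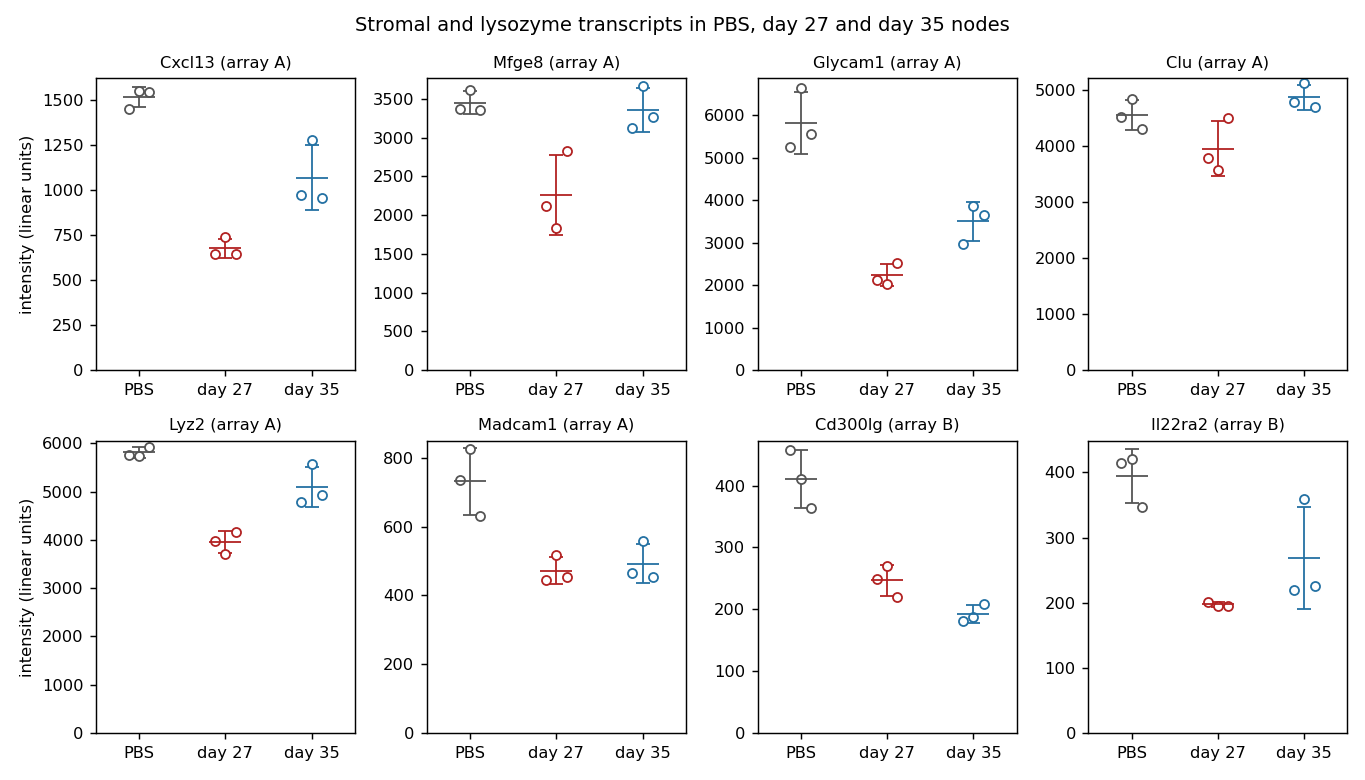
Intensity (linear units, each axis from 0) of 8 transcripts in the PBS, day 27 and day 35 samples; open circles are samples, the long dash is the mean and the bar is 1 SD (n = 3). Cxcl13, Mfge8, Glycam1, Clu and Lyz2 are higher in all 3 day 35 samples than in any day 27 sample, Madcam1 overlaps, and Cd300lg is lower.

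Other genes of the list of stromal and lymphotoxin genes were mixed. Of those in this paragraph, only Clu is also on the follicular dendritic cell list. Clu, the secreted chaperone clusterin, is abundant in follicular dendritic cells and has 4 probe sets on array A. Its brightest read 3785, 3581 and 4510 at day 27 and 4796, 5127 and 4691 at day 35, a difference of 0.31 (log2, SE 0.075, limma adjusted p = 0.37). The other 3 probe sets differed by 0.30, 0.31 and 0.38, and at each of the 4 the late groups did not overlap. Il22ra2, the soluble receptor that binds interleukin 22, was 202, 195 and 195 on array B at day 27 and 220, 359 and 226 at day 35. The difference of 0.41 (SE 0.136, limma adjusted p = 1) rested largely on replicate 2 of day 35. The desmosomal cadherin Dsc3 was higher on both arrays, by 0.33 (SE 0.096) on array A and 0.52 (SE 0.146) on array B, with no overlap on either. Probe sets of Dsg2, another desmosomal cadherin, disagreed: 0.07, 0.19 and 0.37.

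By contrast, Cr2, the complement receptor shared by B cells and follicular dendritic cells, read 1181, 1296 and 1094 at day 27 and 1091, 1321 and 1222 at day 35. The difference was 0.02 (SE 0.092), with full overlap. Of 18 genes listed for follicular dendritic cells 11 were tested, and 3 of them (Mfge8, Cxcl13 and Clu) had an unadjusted p under 0.05 with the higher value at day 35. Over all 12395 genes, each taken by 1 probe set, 1.27% did so, and 647 (5.22%) had such a p in either direction. The listed members had a median difference of 0.0334 against -0.00686 over all genes. Without replicate 3 of day 35 all 11 were above 0 with a median of 0.0929, and without replicate 2 of day 35 the median was -0.00222. It was 0.087 without replicate 2 of day 27 and 0.0964 without replicate 1 of day 35. The late groups did not overlap, with day 35 higher, at 4 of the 11 (3.69% of all genes). In a bulk sample, fewer cells of a type and less RNA per cell cannot be told apart.

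Other genes of lymph node vessels stood on both sides of 0. Madcam1 encodes the addressin that binds the gut-homing integrin of lymphocytes. It read 444, 517 and 454 at day 27 and 466, 558 and 454 at day 35, against 736, 826 and 632 with PBS. Both late groups lay below PBS and overlapped each other, with a difference of 0.06 (log2, SE 0.101, 95% interval -0.15 to 0.27). Its sign turned under some alternatives, with values between -0.03 and 0.20. Ubd, a ubiquitin-like protein also known as FAT10, read 539, 517 and 552 and then 606, 472 and 446. The difference was -0.09 (SE 0.114), again with overlap. Cd300lg, an endothelial receptor-like glycoprotein also called nepmucin, stood further from PBS at day 35: it read 250, 271 and 220 at day 27 and 181, 187 and 208 at day 35, against 458, 410 and 364. That difference was -0.36 (SE 0.114, limma adjusted p = 1), with no overlap. Cd300lg is on the blood endothelium list. Gcnt1, an enzyme that builds the sugars of venule mucins, read 243, 101 and 243 and then 213, 244 and 206 on array B. Its difference of 0.28 (SE 0.251) rested on replicate 2 of day 27 and was -0.14 without it. Of 12 tested genes listed for high endothelial venules, 5 were above 0 (47.4% of all genes) and 7 below, with a median of -0.0901. That median was 0.0175 without replicate 3 of day 35 and -0.16 without replicate 1. At an unadjusted p under 0.05, 1 of the 12 was higher (Glycam1, 1.27% of all genes) and 1 lower (3.95% of all genes). Under all 17 alternatives Glycam1 stayed above 0 (0.55 to 0.76). Ctnnal1 (-0.40 to -0.09), Chst1 (-0.39 to -0.15) and St3gal6 (-0.20 to -0.10) stayed below 0.

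Each late day was also set against the same 3 PBS samples in the same fit. Because the 2 comparisons share those samples, their values are given side by side and nothing is drawn from how alike they are. Calls at an adjusted p under 0.05 numbered 389 at day 27 (3.18%) and 900 at day 35 (7.36%) on array A, and 41 (0.328%) and 449 (3.59%) on array B. Cxcl13 differed from PBS by -1.17 at day 27 and -0.52 at day 35, and Glycam1 by -1.38 and -0.73. All 4 differences passed the test in limma. Mfge8 differed from PBS by -0.63 at day 27 (limma adjusted p = 0.0031) and by -0.04 at day 35 (limma adjusted p = 0.85). Lyz2 differed by -0.56 (limma adjusted p = 7.3e-05) and -0.19 (limma adjusted p = 0.067). For both, a call on one day and none on the other does not show that the days differ, and the direct test of that is the one above. Madcam1 differed by -0.63 and -0.57, and Cd300lg by -0.73 and -1.09, all 4 called.

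**Figure D2:**
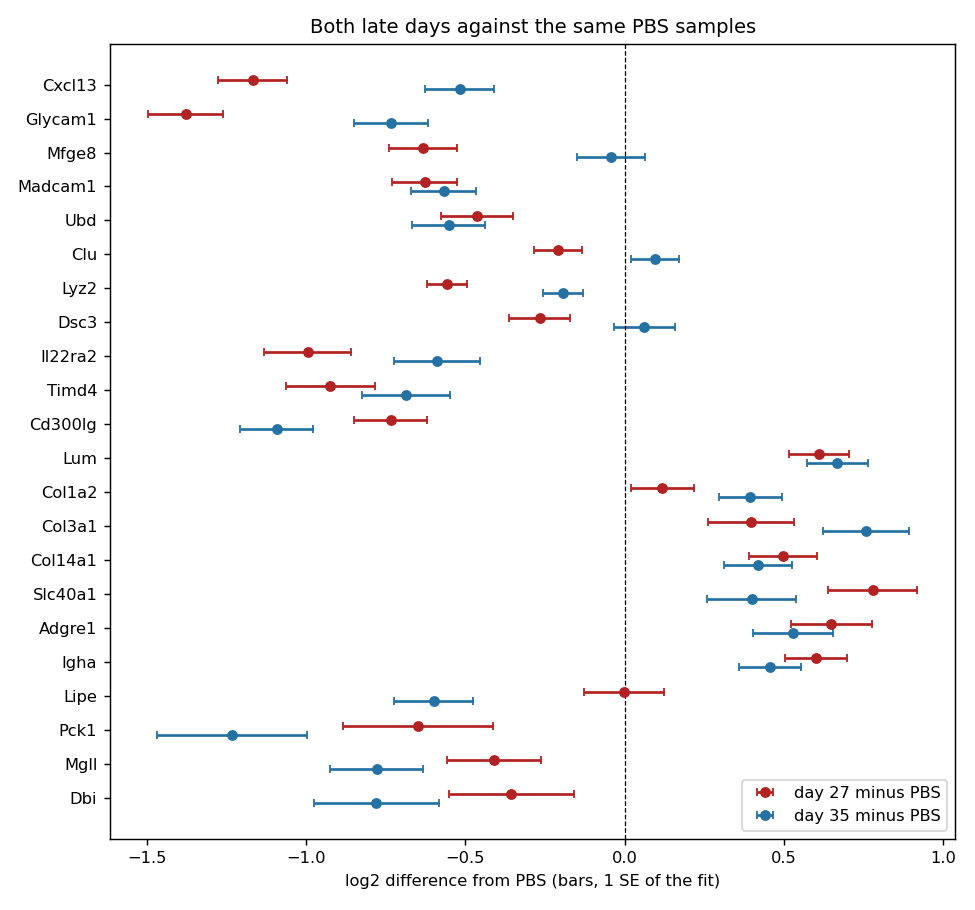
Log2 differences of day 27 (red) and day 35 (blue) from the same 3 PBS samples for 22 genes, 1 probe set per gene, from array B for Il22ra2, Timd4 and Cd300lg and from array A for the rest; bars are 1 SE of the fit. Cxcl13 stands at -1.17 and -0.52 and Glycam1 at -1.38 and -0.73, Madcam1 at -0.63 and -0.57, and Lipe at -0.00 and -0.60.

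The stretches upstream of 4 of these genes are shown because lymphotoxin receptor signals reach promoters through NF-kappaB and because Madcam1 overlapped between the late days where the other three did not. They are the 250 bases before the annotated start, 5′ to 3′ on the gene's strand, from RefSeq on GRCm38.p6. Capitals mark matches on either strand to the NF-kappaB consensus or to any of GGGANNNTCC, GGGANNNCCC and GGGGNNNTCC. Cxcl13 lies at chr5:95956689-95956938 on the plus strand, Glycam1 at chr15:103565082-103565331 on the minus strand, Mfge8 at chr7:79149061-79149310 on the minus strand and Madcam1 at chr10:79664309-79664558 on the plus strand.
Cxcl13: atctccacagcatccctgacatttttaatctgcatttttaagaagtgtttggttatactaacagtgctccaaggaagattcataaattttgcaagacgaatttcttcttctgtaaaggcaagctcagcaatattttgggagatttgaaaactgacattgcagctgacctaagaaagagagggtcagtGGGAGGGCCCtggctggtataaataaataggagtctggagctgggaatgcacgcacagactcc
Glycam1: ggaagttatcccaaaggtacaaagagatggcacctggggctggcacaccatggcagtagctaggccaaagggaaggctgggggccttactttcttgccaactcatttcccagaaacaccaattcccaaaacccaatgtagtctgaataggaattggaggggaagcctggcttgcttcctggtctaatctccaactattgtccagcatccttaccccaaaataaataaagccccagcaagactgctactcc
Mfge8: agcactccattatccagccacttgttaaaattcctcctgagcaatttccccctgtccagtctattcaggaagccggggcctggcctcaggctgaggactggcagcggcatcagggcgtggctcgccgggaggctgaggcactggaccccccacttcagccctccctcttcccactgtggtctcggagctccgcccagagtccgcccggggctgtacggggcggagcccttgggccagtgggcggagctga
Madcam1: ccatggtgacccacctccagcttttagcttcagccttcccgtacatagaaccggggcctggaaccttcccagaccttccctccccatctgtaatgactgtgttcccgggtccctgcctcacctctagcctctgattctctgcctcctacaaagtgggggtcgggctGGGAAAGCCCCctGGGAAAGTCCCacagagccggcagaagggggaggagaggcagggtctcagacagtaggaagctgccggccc

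Madcam1 had 2 matches to the consensus, which 7.25% of 32851 such windows hold. It had 4 to the spelled motifs, counting both strands and overlaps, the first beginning 84 bases before the start. Cxcl13 had 1, beginning 63 bases before the start, and it fitted a spelled motif but not the consensus. At least 1 spelled motif is present in 11.1% of all windows. Glycam1 and Mfge8 had none of either kind. The looser string GGGNNNNNCC, present in 45.8% of windows, occurred 1 time in Cxcl13, 0 times in Glycam1, 3 times in Mfge8 and 4 times in Madcam1. Only these motifs were searched, so any other form of NF-kappaB sequence stays in small letters and uncounted, in Cxcl13 as in the rest. The counts therefore do not rank the genes by NF-kappaB sites. These letters are a description of the windows and not sites, and enhancers further away were not analysed here.

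The ligands, the receptor and the NF-kappaB members themselves stood on both sides of 0. Ltbr, the receptor, read 657, 688 and 680 at day 27 and 680, 671 and 522 at day 35, a difference of -0.12 (log2, SE 0.127). The ligand genes Lta and Ltb stood at -0.06 (SE 0.114) and -0.01 (SE 0.111). Relb, the NF-kappaB subunit of the noncanonical pathway, stood at 0.06 (SE 0.095). Nfkb2, which encodes its partner, gave -0.20 (SE 0.098) and -0.03 (SE 0.066) at 2 probe sets. Vcam1 and Icam1, adhesion molecules on stroma and vessels, stood at -0.05 (SE 0.074) and 0.04 (SE 0.082). All of these groups overlapped. Of 22 tested genes of the pathway 12 were above 0 and 10 below, and Traf1, an adaptor of the receptor family, had the smallest p (0.23, SE 0.103, limma adjusted p = 0.747).

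Matrix genes stood on both sides of 0. Col3a1 read 1992, 1492 and 1943 at day 27 and 2075, 2440 and 2418 at day 35, against 1208, 1644 and 1273 with PBS. The late groups did not overlap, and the difference was 0.36 (log2, SE 0.135, limma adjusted p = 0.63). Col1a2 differed by 0.28 (SE 0.099) and, at a dimmer probe set, by 0.43 (SE 0.132). Col1a1 gave 0.30 (SE 0.091) at one probe set and 0.09 (SE 0.082) at the other. Col6a3, a chain of collagen VI, read 687, 615 and 587 and then 750, 729 and 792, a difference of 0.27 (SE 0.080). Col14a1, a collagen that associates with fibrils, read 723, 556 and 729 and then 626, 625 and 635, a difference of -0.08 (SE 0.107) with overlap. Its other probe sets gave -0.14 and, on array B, 0.01. Igfbp4, which binds insulin-like growth factors, stood at -0.24 (SE 0.080) and Mgp, an inhibitor of calcification, at -0.22 (SE 0.123). Lum, the proteoglycan lumican, was above PBS on both late days, by 0.61 and 0.67, and the late days differed by 0.06 (SE 0.095). Of 49 matrix genes tested, 5 were higher (1.27% of all genes) and 2 lower (3.95% of all genes) at an unadjusted p under 0.05. The list's median was 0.0226, and below 0 without replicate 2 of day 27 (-0.026), replicate 3 of day 27 (-0.00898) or replicate 3 of day 35 (-0.00116). Fmod, the proteoglycan fibromodulin and named after its values were seen, had 4 probe sets with differences of 0.13, 0.53, 0.42 and -0.03.

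Fat cell genes had the lowest median difference of the 33 lists. Of 25 genes listed, 19 were tested, all on array A. The difference was below 0 for 18 (52.6% of all genes) and above for 1, with a median of -0.339 against -0.00686 over all genes. At an unadjusted p under 0.05, 10 of the 19 were lower and 0 higher, where 3.95% of all genes were lower. The late groups did not overlap at 3 of the 19, each lower at day 35 (4.45% of all genes). Without replicate 1 of day 27, or without replicate 2 of day 35, 4 were lower at that p, and the median was -0.245 and -0.203. Without replicate 3 of day 35, 14 were. None passed the adjusted test in limma.

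Lipe, the hormone-sensitive lipase that releases fatty acids, read 1561, 1375 and 1309 at day 27 and 981, 771 and 1073 at day 35, against 1401, 1429 and 1409 with PBS. Day 27 lay around PBS, and all 3 day 35 samples lay below both. The difference was -0.60 (log2, SE 0.124, limma adjusted p = 0.186). Cidec, a protein of lipid droplets, read 1321, 1169 and 1052 and then 907, 599 and 918, a difference of -0.57 (SE 0.158, limma adjusted p = 0.402).

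Pck1, the gluconeogenic enzyme that in fat supplies glycerol for storage, was lower than PBS on both days: 960, 655 and 920 at day 27 and 632, 425 and 640 at day 35, against 1229, 1354 and 1340. Its late groups did not overlap either, with a difference of -0.58 (SE 0.235), and a probe set on array B gave -0.44 (SE 0.205) with overlap. Pnpla2, the lipase that takes the first fatty acid from stored fat, read 2737, 2919 and 2249 and then 1856, 1698 and 2274. There replicate 3 of day 35 lay within the day 27 range, and the difference was -0.44 (SE 0.115).

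Among other fat genes, Retn (resistin) stood at -0.38 (SE 0.139), Adipoq (adiponectin) at -0.34 (SE 0.143) and Mgll, the lipase for monoglycerides, at -0.37 (SE 0.147), all 3 with overlap. Retn and Adipoq were named after their values were seen. Lep, which encodes leptin and was also named after its value was seen, was the member above 0, at 0.11 (SE 0.089). The brightest probe set of Fabp4, the fatty acid carrier of fat cells, differed by -0.12 (SE 0.087) and a second of similar brightness by -0.29 (SE 0.097), again named afterwards. The list's mean over the 19 genes, relative to PBS, was 0.0862, -0.0974 and -0.158 in the samples of day 27 and -0.376, -0.594 and -0.136 in those of day 35. Replicate 3 of day 35 thus lay inside the day 27 range and the other two below it. The summed intensity of the list ran from 47238 to 50917 with PBS, from 44679 to 53764 at day 27 and from 34503 to 46270 at day 35. Mesenteric nodes lie in fat, and how much of it came with each node was not measured, so its part in these differences was not tested.

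**Figure D3:**
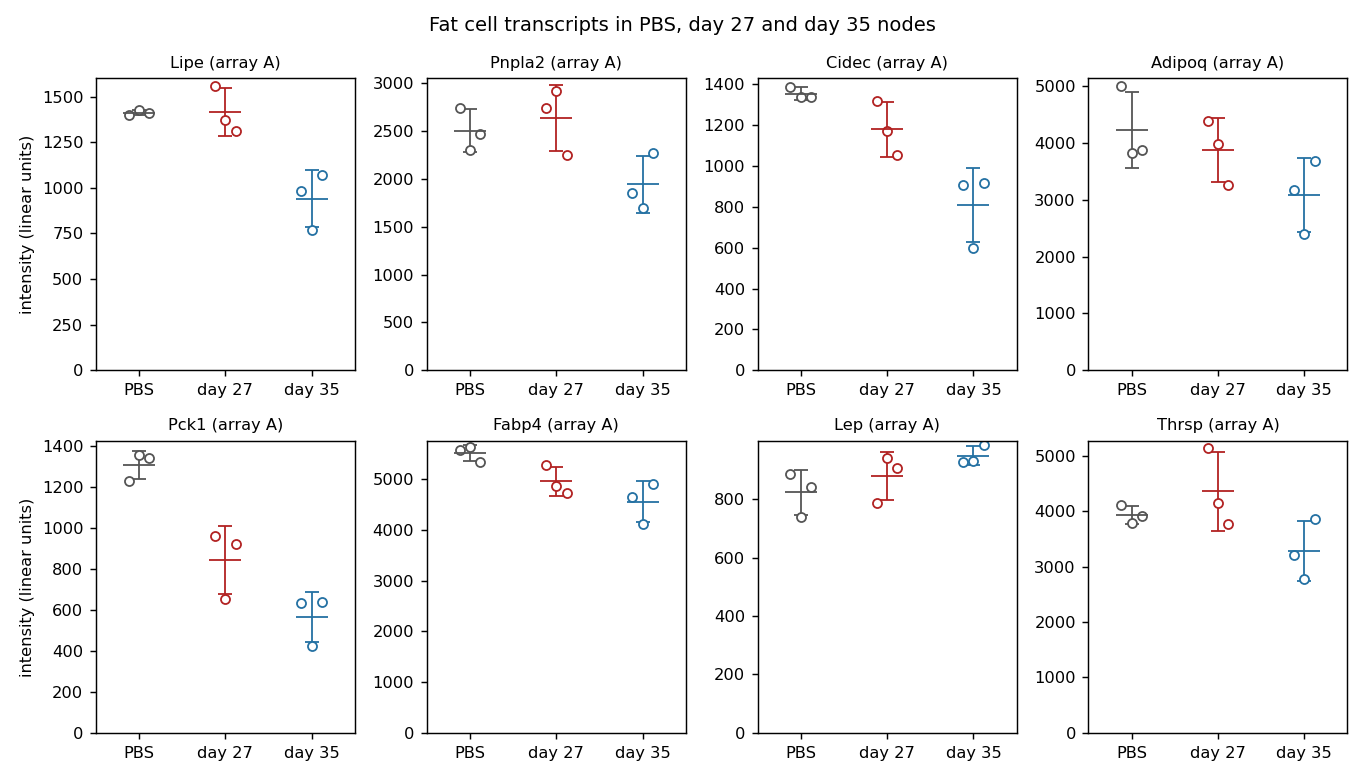
Intensity (linear units, each axis from 0) of 8 fat cell transcripts in the PBS, day 27 and day 35 samples; open circles are samples, the long dash is the mean and the bar is 1 SD (n = 3). Lipe, Cidec and Pck1 are lower in all 3 day 35 samples than in any day 27 sample, Pnpla2, Adipoq, Fabp4 and Thrsp overlap, and Lep differs by 0.11 (log2) in the other direction.

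The smallest p-values of array B fell mostly on lower values at day 35. Of its 60 named probe sets with the smallest p, 52 were lower at day 35 and 8 higher, and on array A 42 were lower and 18 higher. Among all probe sets with an unadjusted p under 0.05 in limma, 237 of 354 were lower on array B and 628 of 815 on array A. On array A the smallest p-values thus held no excess of lower values over that share. Plaat3, a phospholipase abundant in fat tissue, read 1017, 952 and 762 at day 27 and 648, 625 and 649 at day 35, against 1199, 1295 and 1192 with PBS. The late groups did not overlap (-0.50, log2, SE 0.103, limma adjusted p = 0.61), while a Plaat3 probe set on array A gave -0.17 (SE 0.116) with overlap. Prkar2b, a regulatory subunit of protein kinase A, read 371, 296 and 333 and then 146, 169 and 226. That was the largest difference among the named probe sets, -0.90 (SE 0.198, limma adjusted p = 0.61), and the other two of its probe sets gave -0.36 and -0.66, none with overlap. Hcar1, the lactate receptor of fat cells, read 208, 190 and 205 and then 157, 128 and 156 (-0.46, SE 0.101, limma adjusted p = 0.61). Fmo2, a flavin monooxygenase, gave -0.56 (SE 0.120) at one probe set of array B but -0.02, -0.14 and -0.10 at its other three, so its probe sets disagreed.

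Several enzymes outside the fixed lists had small p-values on array A and are named after their values were seen. Adh1, an alcohol dehydrogenase that also acts on retinol, read 670, 603 and 592 at day 27 and 425, 363 and 449 at day 35 (-0.60, SE 0.122, limma adjusted p = 0.17). Gstz1, an enzyme of tyrosine breakdown, differed by -0.58 (SE 0.117, limma adjusted p = 0.17). Gpam, which catalyses the first step of triglyceride synthesis, read 2311, 1521 and 2021 and then 1269, 1389 and 1516, against 1301, 1481 and 1464 with PBS. Here day 27 stood above PBS and day 35 within or near its range, with a difference of -0.47 (SE 0.110). Glul, glutamine synthetase, showed the same order at its dimmer probe set, with 792, 724 and 749 and then 578, 516 and 572 against 521, 632 and 546, while its brighter one differed by -0.18 (SE 0.085). Ccnd1, cyclin D1, was higher at day 35 at all 3 probe sets, by 0.29, 0.61 and 0.34. Pla2g2d, a secreted phospholipase of lymphoid tissue, was higher by 0.26 and 0.27 at its probe sets.

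Genes of mitochondrial respiration were also lower as a list, by smaller amounts. All 47 tested small subunits of the respiratory chain were below 0, with a median of -0.174 and differences from -0.385 to -0.0467. At an unadjusted p under 0.05, 13 were lower (3.95% of all genes). Without replicate 2 of day 27, or without replicate 2 of day 35, 3 were, and the median was -0.0959 and -0.104. Without replicate 3 of day 27, 24 were, with a median of -0.243. The list's mean relative to PBS was -0.313, -0.16 and -0.43 in the day 27 samples and -0.382, -0.584 and -0.464 in those of day 35, so the late groups overlapped. It also varied between arrays of one early day: on day 3 it was -0.0414, 0.0448 and, in replicate 3, -0.388. That array had a low weight (0.269). The source of this spread was not tested. Cox5a, a subunit of cytochrome c oxidase, read 2007, 1989 and 1768 and then 1777, 1474 and 1417 (-0.31, SE 0.097, limma adjusted p = 0.467). Of 36 larger mitochondrial enzymes 31 were below 0 (52.6% of all genes), with a median of -0.0923, which was -0.0287 without replicate 1 of day 27 and -0.15 without replicate 2. Pdha1, a subunit of pyruvate dehydrogenase, read 2783, 2021 and 2274 and then 1792, 1831 and 1945, with no overlap (-0.33, SE 0.104). In replicate 3 of day 35, an array of low weight (0.287), the mean was -0.464 here and -0.136 for the fat list. That is a single sample, and the part of fat cell transcripts in the respiratory list was not tested. Cytosolic ribosomal protein genes, as a comparison, had a median of -0.00856 over 33 genes, between -0.0526 and 0.047 with single samples out.

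**Figure D4:**
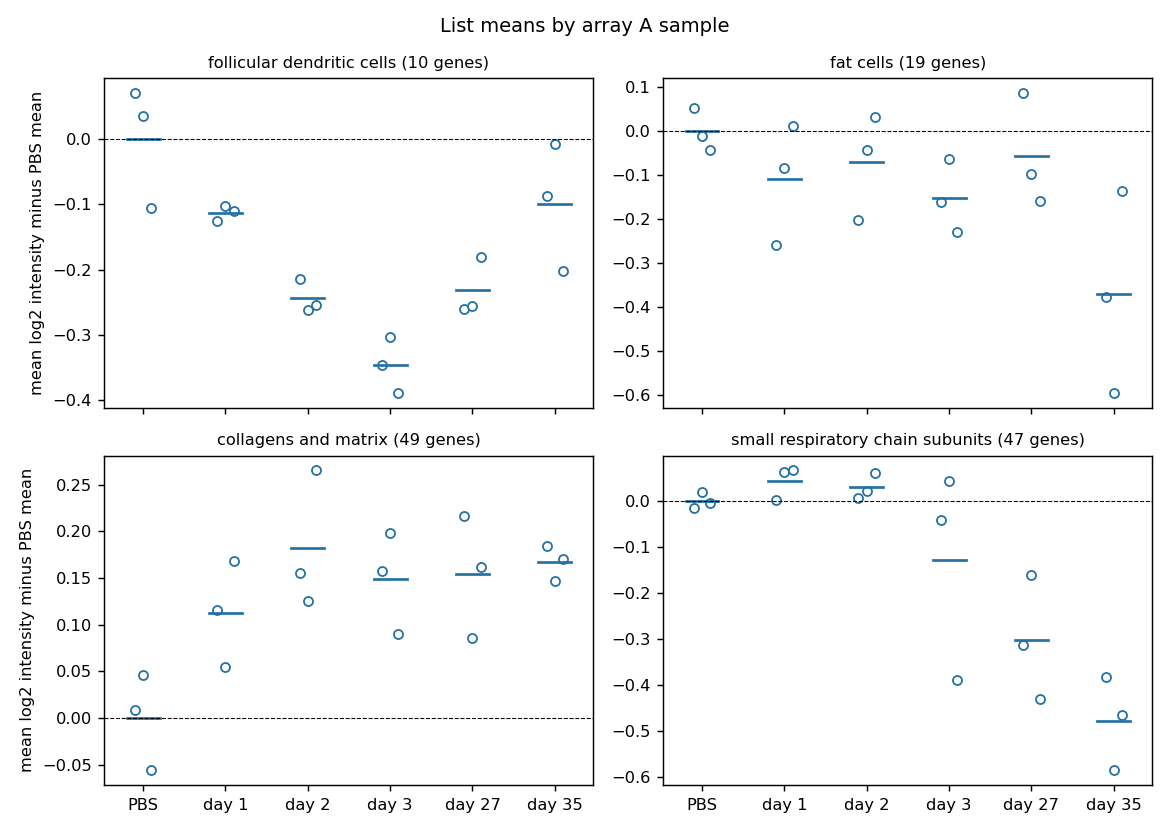
Mean log2 intensity relative to the PBS mean over the array A genes of 4 lists, for every array A sample by day; open circles are samples and dashes are group means (n = 3). For fat cells, 2 of the 3 day 35 samples, at -0.376 and -0.594, lie below all day 27 samples, and for follicular dendritic cells day 27 lies between -0.26 and -0.18 and day 35 between -0.202 and -0.00756.

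A pair of clock output genes was lower at day 35. Dbp, a transcription factor driven directly by the clock, read 411, 451 and 392 at day 27 and 298, 277 and 361 at day 35, against 404, 470 and 463 with PBS. A second probe set read 427, 376 and 403 and then 248, 268 and 291. The differences were -0.43 (SE 0.113) and -0.58 (SE 0.138), with no overlap at either. Nr1d1, the clock repressor REV-ERB alpha, read 540, 577 and 438 and then 407, 348 and 408 (-0.41, SE 0.101, limma adjusted p = 0.37), also with no overlap. The other 12 of 14 tested clock genes had an unadjusted p of 0.05 or more, among them Per1 at -0.05, Per2 at 0.15 and Arntl, the core activator, at 0.09, all 3 named after their values were seen. The labels give no hour of harvest, so its part was not tested.

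Of 25 macrophage genes tested, 19 were below 0 (52.6% of all genes) and 6 above, with a median of -0.0788. At an unadjusted p under 0.05 Lyz2 was higher (1.27% of all genes) and 6 were lower (3.95% of all genes): Slc40a1, Lgals3, Hmox1, Clec4n, C1qb and, named after its value was seen, Fcgr3. Slc40a1, the iron exporter ferroportin, read 728, 625 and 865 at day 27 and 717, 452 and 550 at day 35, against 364, 453 and 472 with PBS (-0.38, SE 0.139, with overlap). Clec4n, the receptor dectin-2, read 517, 542 and 521 and then 490, 429 and 447, with no overlap (-0.21, SE 0.069). Adgre1, which encodes the macrophage marker F4/80, differed by -0.12 (SE 0.126), and above PBS it stood at 0.65 and 0.53. Timd4, a receptor for phosphatidylserine on resident macrophages, stood at 0.24 (SE 0.138). The count moved with single samples: 10 genes were lower at that p without replicate 1 of day 35, 4 without replicate 1 of day 27, 3 without replicate 3 of day 27, 2 without replicate 2 of day 35 and 3 without replicate 3 of day 35. The median was -0.169, -0.0623, -0.0528, -0.047 and -0.00892 in these fits, and -0.136 without replicate 2 of day 27.

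Of 27 interferon-response genes 23 were above 0 (47.4% of all genes) and 4 below, with a median of 0.117. Oasl1 and Gbp2 were higher at an unadjusted p under 0.05 (0.20, SE 0.066, and 0.15, SE 0.071), where 1.27% of all genes were. The median was 0.0567 without replicate 1 of day 35, 0.0502 without replicate 2 and 0.189 without replicate 3, where 10 genes were higher at that p. Of 21 B cell genes 16 were above 0 (47.4% of all genes), with a median of 0.0911, which was 0.0476 without replicate 2 of day 27 and 0.138 without replicate 3. The kinase gene Blk had the smallest p (0.19, SE 0.066). The T cell list had 0 of 20 genes, the plasma cell list 0 of 17 and the natural killer list 0 of 11 with such a p. Igha, the heavy chain of IgA, read 10231, 9837 and 9801 and then 9065, 9078 and 8842 at one probe set, with no overlap (-0.15, SE 0.098). The highest intensities of the late arrays were 11401 to 12736, and whether so bright a signal is compressed was not tested. At its other two probe sets the differences were -0.06 and -0.10. The dendritic cell integrin gene Itgax was higher by 0.22 (SE 0.070), with no overlap.

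Remaining lists held scattered members. Tagln, a protein of the contractile apparatus of smooth muscle, read 929, 1070 and 825 and then 693, 618 and 722, with no overlap (-0.47, SE 0.119, limma adjusted p = 0.402). Of the 10 smooth muscle genes tested, 9 were below 0 (52.6% of all genes), and 6 without replicate 1 of day 35. Srebf1, a transcription factor for lipid synthesis, read 1950, 1610 and 1822 and then 1483, 1529 and 1385 against 1363, 1477 and 1116 with PBS. The late groups did not overlap, and the difference was -0.29 (SE 0.089). Its list of lipid synthesis genes had a median of -0.0247 over 22 genes (0.00902 without replicate 1 of day 27 and 0.00829 without replicate 1 of day 35), and 1 had an unadjusted p under 0.05. Of 11 lymphatic endothelial genes 7 were below 0, and 4 without replicate 3 of day 35. Flt4, the receptor for lymphatic growth factors, was lower without overlap (-0.18, SE 0.069). Csf3r, the receptor that neutrophils carry for their growth factor, was higher by 0.25 (SE 0.071), with no overlap.

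**Figure D5:**
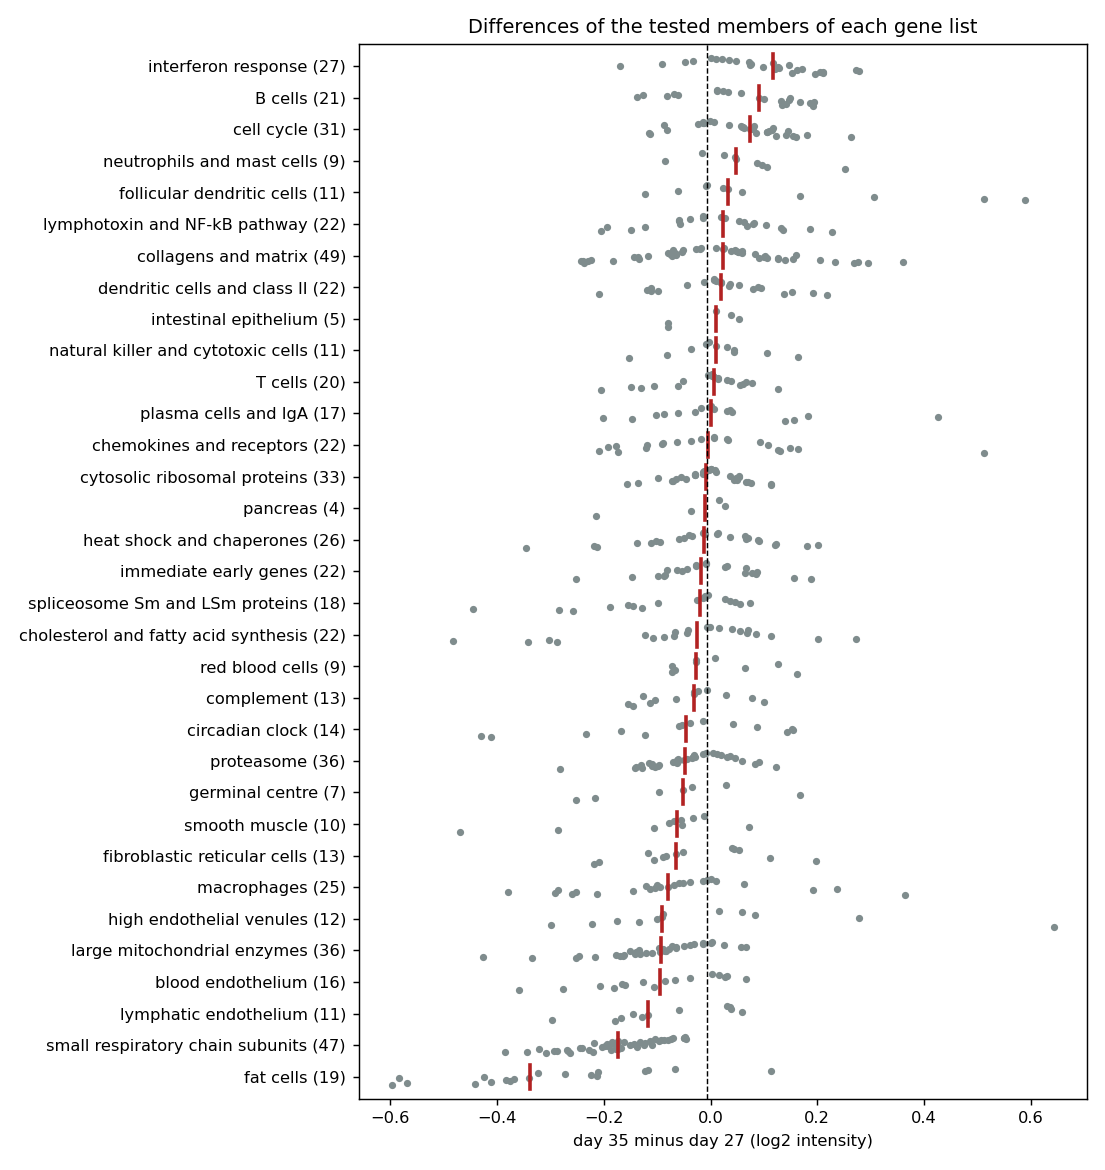
Day 35 minus day 27 (log2 intensity) of the tested members of 33 gene lists, 1 point per gene, with the list median as a red bar and the median of all genes, -0.00686, as a dashed line; numbers in brackets are tested genes. The fat cell list has the lowest median, -0.339, followed by small respiratory chain subunits at -0.174, and the interferon list has the highest, 0.117, with single high points for Cxcl13, Mfge8 and Glycam1 in other lists.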

How the data were processed

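RNA of mesenteric lymph nodes was measured on 18 arrays of each of 2 kinds. The authors deposited 1 linear intensity per probe set and array; the labels do not say which software, background correction or scaling produced it. Groups come from the sample titles. A floor was set at each table's 20th percentile (122.6 for array A, 76.57 for array B) before log2 was taken. A probe set was tested if at least 3 arrays exceeded the median of the table. Array A has 22626 probe sets and array B 22511, besides 64 controls each, and 20380 and 14661 are listed under 1 gene symbol, the only ones named. Each table was fitted with limma 3.58.1 in R 4.3.3 (lmFit, eBayes with trend), all 6 groups in 1 fit, and p-values are two-sided, adjusted by Benjamini-Hochberg within table. Differences are log2 day 35 minus day 27. For lists, each gene is taken from array A where tested, otherwise array B, by its brightest probe set.

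The members, gene lists and tests were chosen with earlier results of these data known. Named genes are the 4 smallest p-values per table (as fewer than 4 passed), all of a list of stromal and lymphotoxin genes, and up to 4 members of smallest p in each other list; others are marked. On simulated arrays the test called 74.6% of 67 probe sets changed by 0.5 (log2) among 12231 on array A and 58.2% of 67 among 12516 on array B, and 100% and 95.5% of 67 changed by 1. In that simulation 200 probe sets of each table were changed, by 0.5, 1 or 2. Unchanged probe sets called there numbered 12 on array A and 9 on array B. An adjusted p depends on how many probe sets change and by how much, so these shares hold for that setting only. The number of arrays limits the precision. Alternatives covered scaling, floor, filter, variance model, array weights, a replicate block, fewer groups and leaving out samples.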

Additional observations from a re-analysis of the deposited data

How the results depend on the processing

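The count of called probe sets depended on how arrays were weighted. On array A it was 0 as reported. It became 4 with quantile normalization (Cxcl13, Mfge8, Lyz2 and Glycam1, all higher), 464 with array weights (75 higher, 0.613%, and 389 lower, 3.18%), and between 0 and 6 when single late samples were left out. Those calls were 1 lower without day 27 replicate 2 (Gpam), 6 higher without day 27 replicate 3 (Ccnd1, Mfge8, Lyz2, Glycam1 and 2 probe sets of Clu), and 2 higher without day 35 replicate 3 (both of Cxcl13). Added after seeing the data, leaving out day 27 replicate 2 and day 35 replicate 3 together gave 3 (Cxcl13 at 2 probe sets, and Gpam lower), and array weights in a fit of the late samples only gave 241 (29 higher, 0.237%, and 212 lower, 1.73%). On array B the count was 0 throughout, leaving out single samples included (0 to 0), except 7, all higher, with no filter; those 7 were above the floor on 3 to 15 of 18 arrays. The array weights of array B did not converge. Of 640 tested list genes, 3 were called with quantile normalization, 66 with array weights (14 of the 19 fat genes lower) and 35 with weights in late samples only. There was 1 with both low-weight samples out, 1 with the mean of a gene's probe sets, and 0 to 4 with single samples out. Over all probe sets of array A the 2 weightings called 0.613% higher and 3.18% lower, and 0.237% and 1.73%, with 0 on array B. Lists and named probe sets were chosen with earlier results of these data known. Of the 157 named probe sets, 4 were called with quantile normalization, 41 and 26 with the 2 array weightings, 2 with both samples out, 1 with the replicate block and 0 to 4 with single samples out. The cause of these differences was not tested. Whether replicate numbers pair the samples is not in the labels and cannot be decided from 3 samples a day. Same-numbered deviations correlated at -0.24, -0.32 and -0.092 for array A and at 0.34, -0.38 and 0.56 for array B. Differently numbered ones lay between -0.25 and 0.36 for array A and between -0.59 and 0.36 for array B. With the replicate block 1 probe set was called on array A (Cxcl13, limma adjusted p = 0.0076) and 0 on array B. Of 2669 values of the named probe sets under 17 alternatives, 2580 kept their side of the threshold without a counted turn of sign. A further 80 passed it, and 9, all small, were counted as turned in sign. Creld2 (-0.20 as reported) turned to 0.0592 with array weights, 0.0622 with weights in late samples only, 0.0534 without day 35 replicate 3 and 0.0829 with both samples out. Gcnt1 (0.28) turned to -0.0926 with both out and ranged from -0.14 (without day 27 replicate 2) to 0.49 with single samples out, Cd247 (-0.13) to 0.0029 without day 35 replicate 3, and Psmd3 (-0.28) and Klrk1 (-0.08) to 0.00093 and 0.029 with both out. A turn of sign was counted where the reported difference exceeded its SE or either value was called. Smaller differences also crossed 0 and were not counted, among them Madcam1 (-0.03 to 0.20) and Lum (-0.13 to 0.13). The fat list's median lay between -0.566 and -0.203 under every alternative run.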
